A study of Mus musculus with 16 samples.

Results

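The genes described here are 38 markers of lymphocytes, taken by name: 9 of B cells, 4 of plasma cells, 19 of T cells and 6 of NK and other cytotoxic cells. The table of 15156 genes held 35 of them, and the T cell receptor constant genes Trbc1, Trbc2 and Trac were not analysed here. Of these 35, 33 reached a normalized count of 10 in at least 4 of 16 libraries and were tested, while Tnfrsf17 and Gzmb did not and are given as values. The libraries were total RNA from whole pancreas of adult mice, 4 animals in each of 4 genotype groups. The WT group was wild type, the DC group was Daxxfl/flPdx1-CreTg with floxed Daxx, the MC group was Men1fl/flPdx1-CreTg with floxed Men1, and the DMC group was Daxxfl/flMen1fl/flPdx1-CreTg with both genes floxed. Daxx encodes a histone chaperone and Men1 the scaffold protein menin. The Pdx1 promoter drives Cre in the pancreatic epithelium. No Cre transgene is given for WT. All 4 groups had received caerulein, an analogue of cholecystokinin that overstimulates acinar cells and injures the gland, at 50 ug/kg in 4 hourly intraperitoneal injections, 3 days a week for 3 weeks. The mice were 6 to 10 weeks old and tissue was taken 5 days after the last dose, so every difference below is between genotypes in injured pancreas.

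B cells recognise antigen through a surface immunoglobulin whose signalling chains are Cd79a and Cd79b, and those that become plasma cells switch to secretion and make Jchain, the chain that joins IgA and IgM into polymers. T cells signal through the Cd3 chains, with Cd4 on helper cells and Cd8 on cytotoxic cells, and NK cells and cytotoxic T cells store granzymes in granules. In chronic pancreatitis such cells lie among damaged lobules and in aggregates around ducts and vessels, and B and T cells are also the main cells of lymph nodes. In RNA of a whole tissue, fewer cells of a type and less RNA per cell cannot be told apart.

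Values are the authors' normalized counts, gene counts divided by a size factor per library, and levels are log2(normalized count + 1). Reads per library came to 13481063 to 23728309, and a value of 0 allows up to 3 reads, or 1.84 to 5.30 normalized counts, for counting error only. Acinar markers had a mean level of 15.77 to 17.49, as whole pancreas has. WT replicates 2 and 3 stood apart from the other libraries in the lymphocyte genes: replicate 3 was the highest of 16 for 30 of 35 genes, and both were the top pair for all 9 B cell genes and all 16 T cell genes measured. WT replicate 1 was among the 4 lowest libraries for 29 of 35 genes. The comparisons with WT are given with and without WT replicates 2 and 3.

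The levels of B and T cell genes ranged more widely between animals of the same genotype than between the genotype means, in each of the 4 groups. B cell genes, averaged over 9 genes in replicates 1 to 4, had levels of 4.03, 8.03, 8.88 and 5.97 in WT, 5.33, 5.09, 7.20 and 4.76 in DC, 4.09, 4.34, 6.30 and 3.62 in MC, with 6.89, 7.39, 4.92 and 3.67 in DMC. Within WT these levels spanned 4.85 on the log2 scale, a 28.9-fold range between animals of the same label, against 2.44 in DC, 2.69 in MC and 3.72 in DMC. T cell genes, averaged over 16 genes, had levels of 3.22, 7.46, 8.07 and 5.39 in WT, 5.08, 4.26, 6.03 and 3.72 in DC, 3.87, 3.49, 6.55 and 4.81 in MC, with 4.62, 6.84, 4.71 and 4.00 in DMC. WT again held both the highest library, at 8.07, and the lowest, at 3.22. Plasma cell genes, averaged over 4 genes, had levels of 4.10, 7.74, 7.79 and 5.98 in WT, 6.80, 6.47, 6.79 and 5.49 in DC, 4.06, 3.97, 5.68 and 5.35 in MC, with 7.31, 7.25, 6.22 and 5.02 in DMC. NK and cytotoxic genes, averaged over 6 genes, had levels of 2.16, 5.00, 5.58 and 3.39 in WT, 4.60, 3.88, 4.40 and 3.63 in DC, 3.69, 3.53, 4.42 and 4.08 in MC, with 3.69, 4.84, 3.66 and 3.55 in DMC. Outside WT the NK and cytotoxic levels lay within 3.53 to 4.84, while the WT libraries spanned 2.16 to 5.58. In each class the 4 genotypes overlapped. For plasma cell genes, 3 of 4 MC libraries lay below the lowest DC library.

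**Figure D1:**
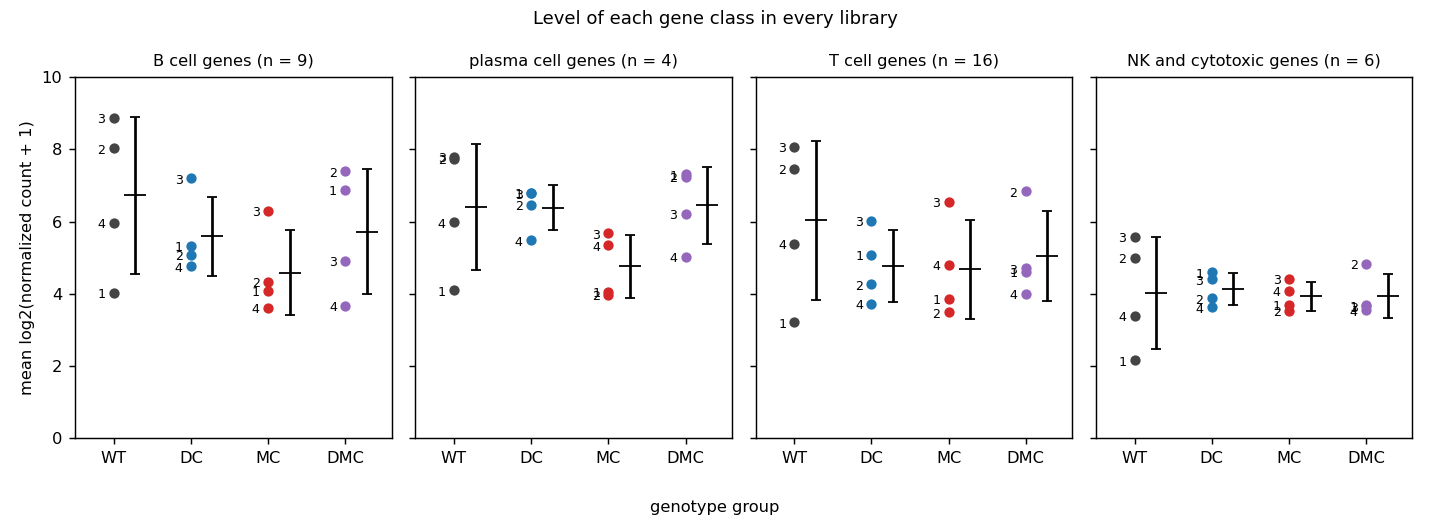
Mean log2(normalized count + 1) of the B, plasma, T and NK and cytotoxic genes (y axis) by genotype group (x axis), 1 point per library with its replicate number and a bar for the mean ± SD of 4 libraries. WT has the widest bar in every class, with an SD of 2.17 for B cell genes and 2.20 for T cell genes, and its libraries run from 4.03 to 8.88 and from 3.22 to 8.07.

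All 9 B cell genes were highest in WT replicate 3, and WT replicate 2 was among the top 2 libraries for all 9. Cd79a (ENSMUSG00000003379.7, chromosome 7, 24897381 to 24902197, GRCm38), a signalling chain of the B cell receptor, had normalized counts of 12.4, 219.7, 347 and 50.5 in WT, 31.2, 29.9, 105 and 22.01 in DC, 6.13, 30.2, 55.6 and 13.1 in MC, with 80.1, 126, 30.04 and 10.1 in DMC. In each group 1 or 2 libraries were high (WT 2 and 3, DC 3, MC 3, and DMC 1 and 2), and the groups overlapped. Ms4a1 (ENSMUSG00000024673.9, chromosome 19, 11249675 to 11266241), which encodes CD20, had normalized counts of 22.98, 651, 1144 and 194 in WT, 49.6, 109, 287 and 78.1 in DC, 25.7, 47.6, 161 and 22.5 in MC, with 349.7, 358, 83.6 and 21.9 in DMC. The same libraries were high, and DMC replicates 1 and 2 were nearly equal. Pax5 (ENSMUSG00000014030.15, chromosome 4, 44524757 to 44710487), the transcription factor that keeps B cell identity, had normalized counts of 7.07, 248, 501 and 38.4 in WT, 24.5, 24.1, 136 and 15.4 in DC, 9.80, 7.94, 77.8 and 1.45 in MC, with 80.1, 153, 28.7 and 9.14 in DMC. MC replicate 4 held 2 reads and WT replicate 1 held 4. Cd22 (ENSMUSG00000030577.14, chromosome 7, 30865402 to 30880342), an inhibitory lectin of the B cell surface, had normalized counts of 22.98, 434, 744 and 122 in WT, 64.3, 35.7, 256 and 48.4 in DC, 26.96, 30.2, 113 and 26.1 in MC, with 142, 252, 31.4 and 31.98 in DMC. MC replicate 3 stood above 3 libraries that were close to each other. The other B cell genes were also highest in WT replicate 3. Cd79b ranged over 23.8 to 923 (median 72.4) normalized counts, Fcer2a, the low-affinity IgE receptor, over 0.725 to 266 (median 8.51), the kinase gene Blk over 5.48 to 254 (median 32.8) and Fcrla over 3.65 to 209.7 (median 19.9). Cd37, a tetraspanin that other leukocytes also express, ranged over 30.1 to 588 (median 85.5). Cd37 overlaps Tead2 on the opposite strand and the counter's strand setting is not given in the sources used here, so part of its count may belong to Tead2.

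In 1 pair of libraries from each genotype, all B cell genes differed in the same direction. The first library of each pair had the highest B cell level of its group. The second had the lowest, except in MC, where replicate 4 was lowest. Libraries that differ most in the mean of these genes tend to differ in each of them, and the share over all genes is not given here. WT replicate 3 exceeded WT replicate 1 in 9 of 9 genes by a median of 4.70 on the log2 scale, DC replicate 3 exceeded DC replicate 4 in 9 of 9 by 2.29, MC replicate 3 exceeded MC replicate 1 in 9 of 9 by 2.31 and DMC replicate 2 exceeded DMC replicate 4 in 9 of 9 by 3.92.

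Among the plasma cell genes, Jchain had an order of libraries of its own, whereas Mzb1 and Pou2af1 were highest in WT replicates 2 and 3. Jchain (ENSMUSG00000067149.6, chromosome 5, 88519809 to 88527891) had normalized counts of 688, 2650, 3144 and 1737 in WT, 3366, 2587, 1543 and 1452 in DC, 251, 332, 977 and 980 in MC, with 4079, 2434, 2780 and 672 in DMC. Its highest library was DMC replicate 1, followed by DC replicate 1 and WT replicate 3, and all 4 MC libraries lay below all 4 DC libraries. Mzb1 (ENSMUSG00000024353.4), a chaperone for immunoglobulin assembly in the endoplasmic reticulum, had normalized counts of 26.5, 222, 202 and 66.98 in WT, 57.5, 59.7, 58.1 and 27.5 in DC, 6.13, 6.35, 38.4 and 32.6 in MC, with 126, 128, 28.7 and 19.2 in DMC. MC replicates 1 and 2 were the lowest of 16, and DC replicates 1 to 3 were nearly equal. Pou2af1 (ENSMUSG00000032053.8, chromosome 9, 51213708 to 51240080), a coactivator of immunoglobulin genes that B cells also express, had normalized counts of 3.54, 354, 559.7 and 62.6 in WT, 75.9, 45.6, 144 and 29.7 in DC, 18.4, 23.8, 57.6 and 20.3 in MC, with 132, 201, 41.8 and 13.7 in DMC. WT replicates 2 and 3 were highest, as for the B cell genes, and WT replicate 1 was lowest. Tnfrsf17 (ENSMUSG00000022496.5, chromosome 16, 11313812 to 11320074), the plasma cell survival receptor BCMA, was near the limit of detection at 0, 9.04, 5.71 and 1.10 in WT, 9.18, 7.47, 10.2 and 2.20 in DC, 1.23, 0, 2.02 and 2.90 in MC, with 8.20, 7.44, 7.84 and 4.57 in DMC. It had 0 reads in WT replicate 1 and MC replicate 2, and at most 15 reads in any library. Immunoglobulin genes were not analysed here.

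All 16 T cell genes were highest in WT replicate 3 and second in WT replicate 2, and DMC replicate 2 was among the top 4 for all 16. Cd3d, Cd3e and Cd3g, which encode chains of the T cell receptor complex, lie side by side on chromosome 9 (Cd3g at 44969572 to 44980431, Cd3d at 44981786 to 44987339 and Cd3e at 44998740 to 45009627, GRCm38). The 250 bases before the start of Cd3d (RefSeq, GRCm38.p6, chr9:44981536-44981785, plus strand) are shown because they held the only match among T cell gene promoters to the core motif of TCF7 and LEF1, factors whose own genes are members. Capitals mark the match, CTTTGAT read on the other strand, which begins 55 bases before the start.
Cd3d: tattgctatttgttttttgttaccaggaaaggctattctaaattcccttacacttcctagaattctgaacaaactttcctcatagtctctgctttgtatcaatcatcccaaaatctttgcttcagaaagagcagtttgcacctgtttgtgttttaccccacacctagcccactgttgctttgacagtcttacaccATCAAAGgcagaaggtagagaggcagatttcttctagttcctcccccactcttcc
The search covered both strands of 18 promoters of 11 T cell genes, and 1 of 18 (5.56%) held the motif against 1053 of 32851 promoters of the same length (3.21%). The octamer ATGCAAAT, which Pou2f factors bind with the product of Pou2af1, was in 0 of 8 promoters of B cell genes and 0 of 3 of plasma cell genes, against 526 of 32851 (1.60%). These are counts of letters in the 250 bases before a start and describe nothing about binding. RefSeq promoters were found for 24 of 35 genes.

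Cd3e had normalized counts of 3.54, 91.3, 164 and 18.7 in WT, 26.9, 6.64, 31.9 and 4.40 in DC, 4.90, 17.5, 60.6 and 15.96 in MC, with 9.11, 57.5, 7.84 and 9.14 in DMC. DMC replicate 2 stood alone in its group, whereas WT had 2 high libraries. Cd4 (ENSMUSG00000023274.14, chromosome 6, 124864692 to 124888221), the helper T cell coreceptor, had normalized counts of 12.4, 325, 476 and 52.7 in WT, 67.9, 40.6, 133 and 9.90 in DC, 25.7, 28.6, 144 and 52.95 in MC, with 59.2, 210.4, 49.6 and 30.1 in DMC. Cd8a (ENSMUSG00000053977.13, chromosome 6, 71373427 to 71379173), a chain of the cytotoxic T cell coreceptor, had normalized counts of 7.07, 192, 278 and 35.1 in WT, 21.4, 5.81, 51.3 and 3.30 in DC, 2.45, 3.17, 120.3 and 26.8 in MC, with 19.1, 121, 32.7 and 7.31 in DMC. MC replicates 1 and 2 and DC replicate 4 had 3 reads or fewer, while MC replicate 3 exceeded every library but WT 2, WT 3 and DMC 2. Cd8b1 (ENSMUSG00000053044.8, chromosome 6, 71322788 to 71337494), the partner chain, had normalized counts of 5.30, 173, 228 and 27.4 in WT, 14.7, 9.13, 59.2 and 4.40 in DC, 13.5, 0, 98.04 and 13.8 in MC, with 5.46, 92.7, 20.9 and 0.914 in DMC, the widest spread within genotypes of any member. Lck (ENSMUSG00000000409.14, chromosome 4, 129548344 to 129573641), the kinase that starts T cell receptor signalling, had normalized counts of 14.1, 340, 604 and 71.4 in WT, 42.9, 14.9, 125 and 16.5 in DC, 22.1, 26.99, 134 and 50.8 in MC, with 36.4, 228, 41.8 and 28.3 in DMC. Il7r (ENSMUSG00000003882.5, chromosome 15, 9505788 to 9530176), the interleukin 7 receptor of resting T cells, had normalized counts of 37.1, 416, 468 and 106 in WT, 151, 80.5, 131 and 48.4 in DC, 49.02, 26.99, 246 and 87.8 in MC, with 83.8, 320, 57.5 and 62.1 in DMC. Tcf7 (ENSMUSG00000000782.15, chromosome 11, 52252371 to 52283014), a transcription factor of naive and memory T cells, had normalized counts of 65.4, 324, 401 and 133 in WT, 77.7, 69.7, 126 and 89.2 in DC, 72.3, 61.9, 187 and 65.3 in MC, with 75.6, 188, 83.6 and 84.98 in DMC. Outside WT, Tcf7 was even among libraries except for DC 3, MC 3 and DMC 2, and its range over all libraries was the narrowest of the T cell genes. The other T cell genes were also highest in WT replicate 3. Cd5 ranged over 1.77 to 199 (median 20.9) normalized counts, Cd6 over 12.2 to 283 (median 55.8), Cd28 over 12.7 to 212 (median 24.3), Cd2 over 8.84 to 378 (median 44.8), Zap70 over 3.54 to 153 (median 16.3) and Lef1 over 3.54 to 284 (median 15.5). Cd27 ranged over 0 to 172 (median 10.9) and overlaps Vamp1 on the opposite strand, so its counts are uncertain in the same way as those of Cd37.

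**Figure D2:**
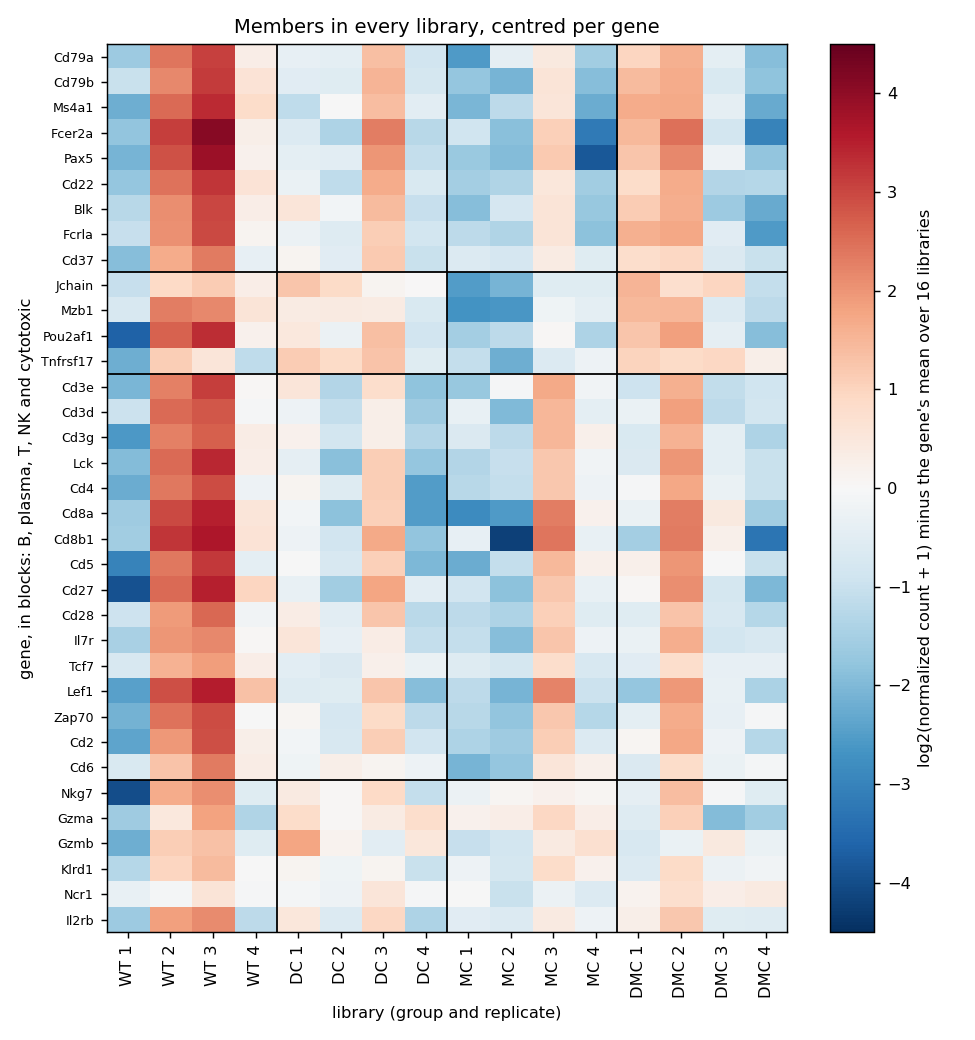
Log2(normalized count + 1) of 35 genes (y axis, in blocks of B, plasma, T and NK and cytotoxic genes) in 16 libraries (x axis), each gene centred on its mean over the libraries (colour, log2 units). The columns WT 2 and WT 3 are high for nearly all genes and WT 1 is low, DMC 1 is high in the B and plasma blocks, and Ncr1 is nearly flat.

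The NK and cytotoxic genes did not share a single order of libraries. Nkg7 (ENSMUSG00000004612.9, chromosome 7, 43437073 to 43438249), a granule membrane protein gene, had normalized counts of 0, 49.7, 67.7 and 9.88 in WT, 20.2, 15.8, 28.5 and 6.60 in DC, 12.2, 15.9, 17.2 and 15.96 in MC, with 10.9, 41.3, 14.4 and 10.1 in DMC. WT held its 0 and its 2 highest values, while the MC libraries lay within 12.2 to 17.2. Gzma (ENSMUSG00000023132.8, chromosome 13, 113093825 to 113100981), granzyme A, had normalized counts of 3.54, 18.1, 48.1 and 4.39 in WT, 23.9, 13.3, 17.1 and 23.1 in DC, 14.7, 15.9, 25.3 and 15.96 in MC, with 8.20, 28.4, 2.61 and 3.65 in DMC. Its DC and MC libraries were even, and its DMC libraries were low except for replicate 2. Gzmb (ENSMUSG00000015437.5, chromosome 14, 56258838 to 56262260), granzyme B, had normalized counts of 0, 9.04, 10.6 and 2.20 in WT, 14.7, 4.15, 2.28 and 5.50 in DC, 1.23, 1.59, 5.05 and 6.53 in MC, with 1.82, 2.71, 5.22 and 2.74 in DMC, with at most 24 reads in any library. Klrd1 (ENSMUSG00000030165.16, chromosome 6, 129591782 to 129598775), the CD94 chain of NK cell receptors, had normalized counts of 5.30, 28.9, 40.8 and 14.3 in WT, 15.9, 12.4, 15.9 and 6.60 in DC, 12.2, 7.94, 26.3 and 16.7 in MC, with 9.11, 27.1, 11.8 and 12.8 in DMC. Ncr1 (ENSMUSG00000062524.4, chromosome 7, 4337724 to 4345164), the NKp46 receptor and the member most restricted to NK cells, had normalized counts of 10.6, 12.7, 21.2 and 13.2 in WT, 12.8, 11.6, 20.5 and 13.2 in DC, 13.5, 6.35, 11.1 and 8.71 in MC, with 15.5, 23.7, 16.98 and 18.3 in DMC. In WT it was highest in replicate 3, with the other libraries close together, and all 4 DMC libraries exceeded all 4 MC libraries. Il2rb, the interleukin 2 receptor beta chain that T cells also express, ranged over 22.98 to 326 (median 57.3) and followed the T cell genes in WT.

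No lymphocyte gene passed the test against WT in any of the 3 floxed groups. The 3 comparisons share their WT libraries and are therefore not independent. In DC against WT, 0 of 33 genes had a limma adjusted p under 0.05 (0.0211% of 14220 genes tested did), and 0 of 33 had an unadjusted p under 0.05 (11.7% of genes tested). edgeR on recovered reads called 0 of 33 (0.0211% of genes tested), with 8 at an unadjusted p under 0.05 (13.2%), and DESeq2 called 0 of 33 (1.98%), with 12 at an unadjusted p under 0.05 (13.8%). In MC against WT, 0 of 33 genes were called by limma (0.781% of genes tested) and 8 of 33 had an unadjusted p under 0.05 (12.7%). edgeR called 0 of 33 (0.781%), with 18 at an unadjusted p under 0.05 (13.7%), and DESeq2 called 1, Mzb1 (2.75%), with 19 at an unadjusted p under 0.05 (14.4%). In DMC against WT, 0 of 33 genes were called by limma (0.788% of genes tested) and 0 of 33 had an unadjusted p under 0.05 (12.5%). edgeR called 0 of 33 (0.717%), with 1 at an unadjusted p under 0.05 (13.1%), and DESeq2 called 0 of 33 (2.33%), with 2 at an unadjusted p under 0.05 (13.5%). The range of no member in WT was clear of its range in DC, MC or DMC, whereas 5.49%, 7.38% and 8.21% of genes tested did not overlap in those comparisons.

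The estimates themselves lay below WT for most genes, and in DC and DMC few genes kept that direction without WT replicates 2 and 3. The log2 difference from WT was below 0 for 29 of 33 genes in DC (52.7% of genes tested), 31 of 33 in MC (52.9%) and 30 of 33 in DMC (52.7%), with medians of -1.05, -1.41 and -0.88 over the 33 genes and of -0.02 in each comparison over all genes tested. By class, the median differences in DC, MC and DMC were -1.20, -2.12 and -0.97 for B cell genes, -1.08, -1.34 and -0.92 for T cell genes, -0.46, -1.74 and -0.44 for the 3 plasma cell genes tested, and 0.02, -0.27 and -0.21 for the 5 NK and cytotoxic genes tested. Leaving out WT replicates 2 and 3 is an alternative chosen after seeing the data that leaves 2 WT libraries. Replicates 2 and 3 were the highest WT libraries for most of these genes, so leaving them out raises most differences by construction. The difference was then below 0 for 3 of 33 genes in DC (48% of genes tested), 15 in MC (50.7%) and 1 in DMC (50%). The medians were then 0.57, 0.06 and 0.73. The sign changed for 26, 16 and 29 of 33 genes, and limma called 0 of 33 in each comparison, against 0.288%, 0.605% and 0.302% of genes tested in DC, MC and DMC. Without WT replicate 1 instead, the median for B cell genes was -2.05 in DC, -3.08 in MC and -1.95 in DMC. Of B cell genes in MC, 9 of 9 lay below WT with all libraries and 8 of 9 without WT replicates 2 and 3, when their median was -0.48. In MC the same counts were 3 and 2 of 3 plasma cell genes and 16 and 4 of 16 T cell genes. For NK and cytotoxic genes they were 3 and 1 of 5.

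**Figure D3:**
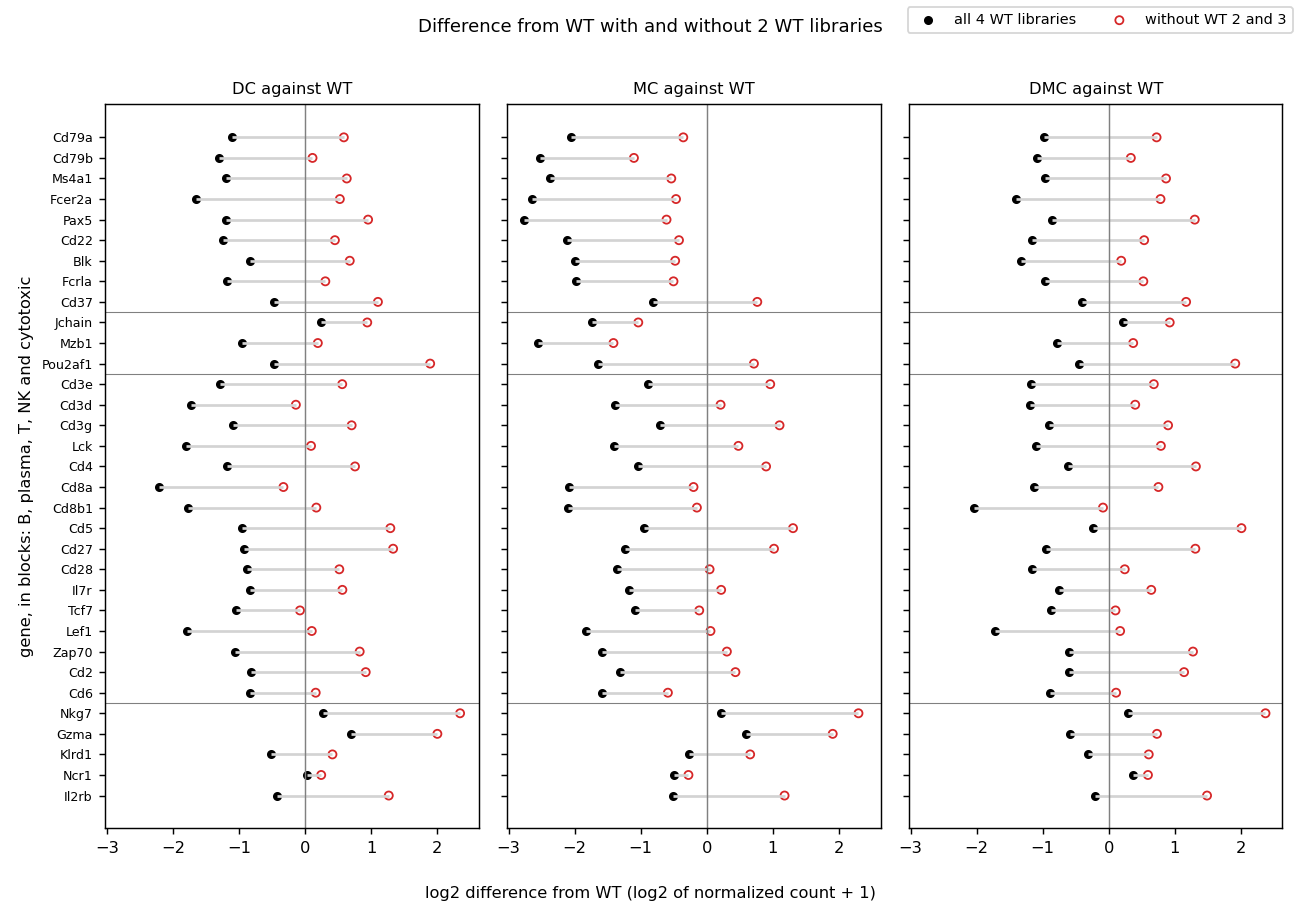
Log2 difference from WT (x axis) of each of 33 genes (y axis, in blocks by class) in DC, MC and DMC, with all 4 WT libraries (filled points) and without WT replicates 2 and 3 (open points). Open points lie to the right of the filled ones, as leaving out the highest WT libraries makes them do, and the sign changes for 26, 16 and 29 of the 33 genes.

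The smallest p of any member against WT belonged to plasma cell genes in MC. Mzb1 differed by -2.56 ± 0.78 (SE; limma adjusted p = 0.150), with edgeR giving an adjusted p of 0.140 and DESeq2 0.0170. Jchain differed by -1.74 ± 0.59 (SE; limma adjusted p = 0.215). Cd79b differed by -2.52 ± 0.92 (SE; limma adjusted p = 0.258), Pax5 by -2.76 ± 1.26 (SE; limma adjusted p = 0.372) and Cd6 by -1.59 ± 0.62 (SE; limma adjusted p = 0.298). In DC the smallest p was that of Tcf7, at -1.05 ± 0.50 (SE; limma adjusted p = 0.434), and in DMC it was Tcf7 again, at -0.87 ± 0.50 (SE; limma adjusted p = 0.494). Without WT replicates 2 and 3 the differences in MC were -1.41 for Mzb1, -1.04 for Jchain, -1.10 for Cd79b, -0.61 for Pax5 and -0.59 for Cd6, and those of Tcf7 were -0.076 in DC and 0.10 in DMC. Exact two-sided permutation tests over 70 assignments of 4 against 4 libraries, run for 19 named genes in 3 comparisons, gave 0 of 57 p under 0.05. The smallest was 0.0857 for Jchain and Mzb1 in MC, with 0.0286 the smallest such a test can give, and the smallest adjusted p was 0.744.

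Between the groups that all carry Pdx1-CreTg, the plasma cell genes had the largest median difference by class in MC against DC (-1.61) and in DMC against MC (1.79), and no gene passed the main test. Jchain in MC against DC differed by -1.98 ± 0.59 (SE; limma adjusted p = 0.126), and its groups did not overlap, at 251.2 to 980 against 1452 to 3366 normalized counts. Of 33 genes it was the only one whose groups did not overlap (8.94% of genes tested did not). limma called 0 of 33 genes there (1.37% of genes tested), with 1 at an unadjusted p under 0.05 (13.7%). With library quality weights limma called Jchain, with an adjusted p of 0.0256. The share of all genes called with those weights is not given here, so the call cannot be set against it. For Jchain edgeR gave an adjusted p of 0.147 and DESeq2 0.0654. Both called 0 of 33 genes (1.26% and 3.52% of genes tested), with 1 and 1 at an unadjusted p under 0.05 (13.8% and 14.8%). Mzb1 differed by -1.61 ± 0.78 (SE; limma adjusted p = 0.379) and Pou2af1 by -1.18 ± 1.17 (SE; limma adjusted p = 0.721). In DMC against MC, Jchain differed by 1.96 ± 0.59 (SE; limma adjusted p = 0.488), Mzb1 by 1.78 ± 0.78 (SE; limma adjusted p = 0.842) and Ncr1 by 0.87 ± 0.32 (SE; limma adjusted p = 0.711). Ncr1 was the only member whose DMC and MC libraries did not overlap, at 15.5 to 23.7 against 6.35 to 13.5 normalized counts (4% of genes tested did not overlap), which is 13 to 35 reads against 4 to 12. limma called 0 of 33 genes in that comparison (0.00703% of genes tested), with 3 at an unadjusted p under 0.05 (5.57%), and edgeR and DESeq2 called 0 of 33 (0.00703% and 0.394%), each with 3 at an unadjusted p under 0.05 (5.69% and 6.19%). In DMC against DC, limma called 0 of 33 (0.534%), with 0 at an unadjusted p under 0.05 (13.2%). edgeR and DESeq2 called 0 of 33 there too (0.499% and 2.43%), each with 0 at an unadjusted p under 0.05 (13.3% and 14.4%). The smallest p was that of Gzma, at -1.27 ± 0.71 (SE; limma adjusted p = 0.466). The interaction of Daxx and Men1 loss was taken as DMC minus DC minus MC plus WT. No Cre transgene is given for WT, so any effect of Pdx1-CreTg itself also enters this difference. It cannot be told apart there from a departure of both losses from adding up. The interaction was below 0 for 2 of 33 genes (47.9% of genes tested). The WT libraries enter this difference, so leaving out the highest of them lowers it by construction. Without WT replicates 2 and 3 it was below 0 for 16 of 33 genes (49.5% of genes tested). Its median was then 0.016 in place of 1.66, with 0 of 33 called (0.0352%). limma called 0 of 33 for it (0% of genes tested), with 1, Mzb1, at an unadjusted p under 0.05 (8.13%) and 2.74 ± 1.10 (SE; limma adjusted p = 0.544). edgeR and DESeq2 called 0 of 33 (0% and 0.302%), with 13 and 15 at an unadjusted p under 0.05 (8.71% and 9.44%). Without WT replicates 2 and 3 the interaction of Mzb1 was 1.59, that of Cd79a went from 2.19 to 0.49 and that of Cd3e from 1.01 to -0.84.

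Most members varied more between animals of a genotype than most genes did. The SD of log2(normalized count + 1) pooled within genotypes had a median of 0.284 over all 14220 genes, against 1.56 over 9 B cell genes, 1.58 over 16 T cell genes, 1.23 over 3 plasma cell genes and 1.09 over 5 NK and cytotoxic genes. Of these, 9 B cell genes, 14 T cell genes, 2 plasma cell genes and 3 NK and cytotoxic genes were within the top 5% of all genes. Among genes within 0.5 log2 units of its mean level, Gzma exceeded 84.3% and Klrd1 64.7%. On that measure each other member except Ncr1 exceeded at least 93.4%, the value of Cd6. Cd8b1 had the widest spread, an SD of 2.31 that exceeded 99.9% of genes, and Fcer2a followed at 2.20. Tcf7, at 0.79, and Klrd1, at 0.81, were below the other T and NK members except Ncr1. Ncr1 had an SD of 0.36, above 62.55% of all genes but above only 3.05% of 886 genes within 0.5 log2 units of its mean level. Jchain had an SD of 0.95, above 99.5% of 1078 genes of like level.

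**Figure D4:**
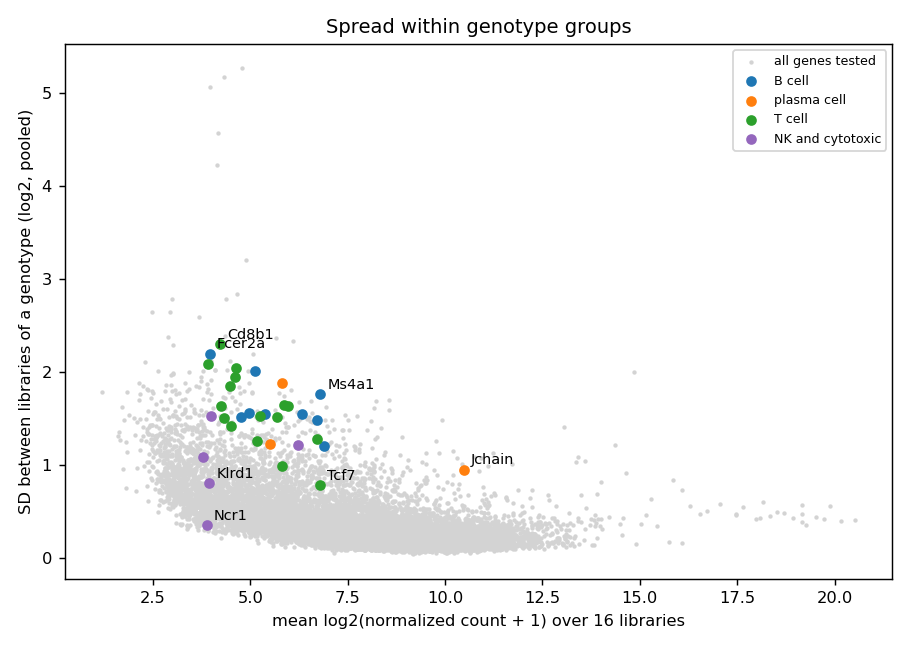
SD between libraries of a genotype, pooled over the 4 groups (y axis, log2 units), against mean log2(normalized count + 1) over 16 libraries (x axis) for 14220 genes (grey) and the 33 members tested (coloured by class). Most members lie along the upper edge of the cloud for their level, and Ncr1, at 0.36, lies at its lower edge.

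Across libraries the B and T cell genes moved together. Over 16 libraries Cd79a and Cd3e had a Pearson r of 0.83 (permutation p = 0.00011, adjusted over 6 pairs 0.00033) and a Spearman rho of 0.83 (permutation p = 0.00024, adjusted 0.00072). Without WT replicates 2 and 3, the libraries farthest from the median of Cd79a, r was 0.68, and after subtracting genotype means it was 0.88. Cd3e and Nkg7 had an r of 0.79 (permutation p = 4e-05, adjusted 0.00024) and a rho of 0.85 (permutation p = 6e-05, adjusted 0.00036), with an r of 0.69 without those libraries and 0.87 after subtracting genotype means. Cd79a and Nkg7 had an r of 0.69 (permutation p = 0.00214, adjusted 0.00428) and a rho of 0.72 (permutation p = 0.0022, adjusted 0.0044), with 0.51 and 0.81. Cd79a and Jchain had an r of 0.66 (permutation p = 0.0053, adjusted 0.00795) and a rho of 0.63 (permutation p = 0.00988, adjusted 0.0148), with 0.63 and 0.67. Jchain and Cd3e had an r of 0.38 (permutation p = 0.152, adjusted 0.152) and a rho of 0.33 (permutation p = 0.212, adjusted 0.212), with 0.32 without MC replicates 1 and 2 and 0.59 after subtracting genotype means. Jchain and Nkg7 had an r of 0.40 (permutation p = 0.128, adjusted 0.152) and a rho of 0.37 (permutation p = 0.155, adjusted 0.186), with 0.57 and 0.57. Whether the correlation of Jchain with Cd3e differs from that of Cd79a with Cd3e was not tested.

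The balance of B to T cell genes, the B cell level minus the T cell level, was read between libraries only, since it is no ratio of cells. It was 0.81, 0.56, 0.81 and 0.58 in WT, 0.25, 0.82, 1.17 and 1.04 in DC, 0.22, 0.86, -0.25 and -1.20 in MC, with 2.27, 0.54, 0.21 and -0.33 in DMC. The WT libraries lay within 0.56 to 0.81 (SD 0.14, n = 4) although their levels spanned 4.85, whereas the SD was 0.41 in DC, 0.86 in MC and 1.12 in DMC (n = 4 each). DMC replicate 1 had the highest balance of 16, with a B cell level of 6.89, a plasma cell level of 7.31 and a T cell level of 4.62. MC replicate 4 had the lowest, with a B cell level of 3.62 and a T cell level of 4.81. In DMC replicate 1 all 9 B cell genes exceeded DMC replicate 4, by a median of 3.21 on the log2 scale, but 11 of 16 T cell genes did, by 0.60.

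**Figure D5:**
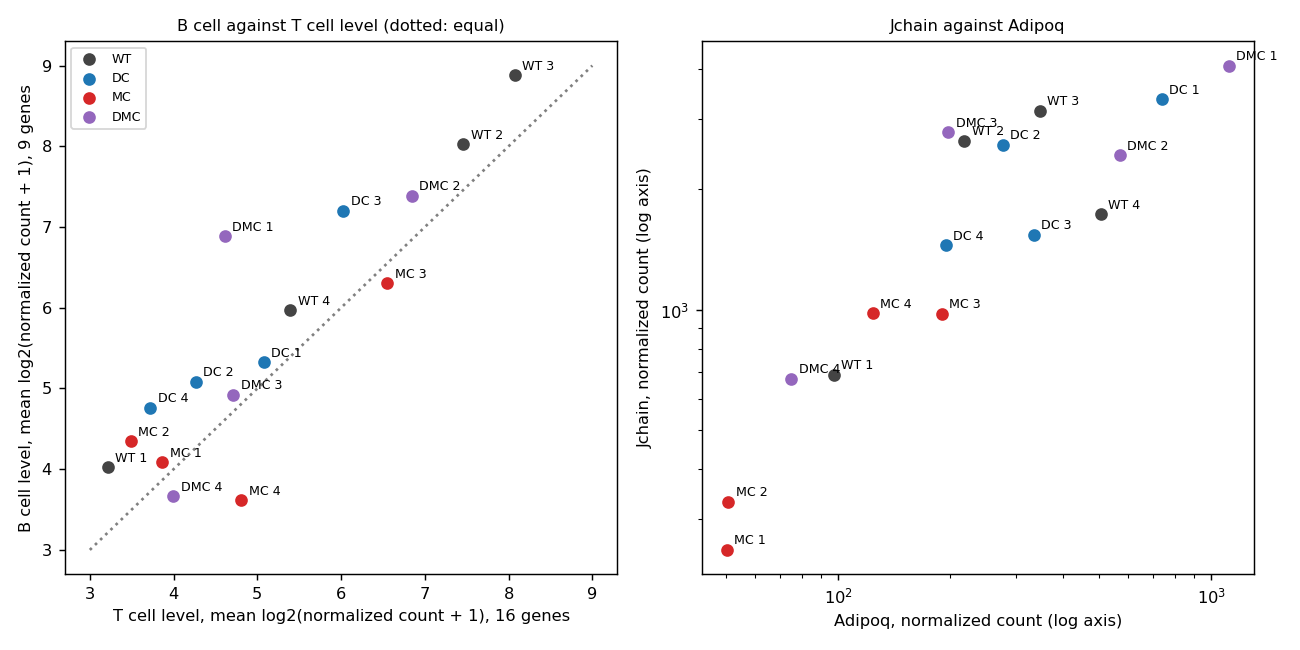
Left, the B cell level (y axis) against the T cell level (x axis), both mean log2(normalized count + 1), with 1 point per library coloured by group and a dotted line where the levels are equal. Right, normalized counts of Jchain (y axis, log) against Adipoq (x axis, log): DMC 1 lies off the left diagonal at 6.89 against 4.62, and on the right MC 1 and MC 2 are lowest for both genes.

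The genes whose levels across the 16 libraries were most like each class marker differed between classes, as a description that carries no test. For Cd79a, the 10 genes outside the members with the highest Pearson r (0.94 to 0.96) included Chst3, Tnfrsf13c, Cxcr5, Fcmr, Prkd2, Tbc1d10c, Bank1, Pla2g2d and St8sia6, of which Fcmr, Cxcr5, Bank1 and Tnfrsf13c are known B cell genes. For Cd3e (r of 0.94 to 0.96) the 10 genes were Fam169b, Spn, Izumo1r, Ltb, Il2rg, Traf1, Prkcq, Carmil2, Fam78a and Il21r, of which Prkcq encodes a kinase of T cell receptor signalling. For Nkg7 (0.93 to 0.94) they were Fyb, 9930111J21Rik1, Ifi47, Nfkbie, Cxcl9, Runx3, Themis2, Sp100, Il10ra and Ikzf1, among them the interferon-induced Ifi47, Cxcl9 and Sp100.

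For Jchain (0.82 to 0.93) the 10 genes were Tusc5, Adipoq, Pias1, Taf2, Fabp4, Gpat3, Car3, Cd36, Chst1 and Orm1, and none was in a lymphocyte list. Adipoq, Fabp4, Car3 and Cd36 are known adipocyte genes. Adipoq, the fat cell hormone adiponectin, had normalized counts of 97.2, 218, 348 and 505 in WT, 736, 276, 335 and 195 in DC, 50.2, 50.8, 190 and 124 in MC, with 1117, 569.7, 197 and 74.9 in DMC. Its highest libraries were DMC 1 and DC 1, as for Jchain, and MC replicates 1 and 2 were lowest for both. Fabp4, a fatty acid binding protein of fat cells, had normalized counts of 419, 538, 789.8 and 851 in WT, 1116, 616, 769 and 521 in DC, 227, 302, 639 and 393 in MC, with 1669, 1164, 551 and 332 in DMC. Among the members, Mzb1 was most like Jchain (r of 0.86), and Cd79a was at 0.66. The part of fat tissue in the Jchain values was not tested.

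Further genes of the same lineages were read from lists of known markers, and no test compared these lists with the members. Of 18 other B lineage genes tested, 15 in DC, 17 in MC and 14 in DMC lay below WT, with median log2 differences of -0.95, -1.12 and -0.57. Of 19 other T lineage genes, 18 lay below WT in each group, with medians of -1.03, -1.12 and -0.86. Of 9 other NK and cytotoxic genes, 9, 8 and 6 lay below WT, with medians of -0.55, -0.77 and -0.24. Of 8 other plasma cell genes, 7, 5 and 4 lay below WT, with medians of -0.18, -0.26 and -0.16. The most abundant of those 8, Fkbp11, Txndc5 and Derl3, belong to the secretory pathway that acinar cells also use, and the list's median SD within genotypes was 0.41. Without WT replicates 2 and 3, the genes below WT in DC, MC and DMC came to 2, 5 and 1 of the B lineage list, 2, 4 and 1 of the T lineage list, 2, 3 and 1 of the NK and cytotoxic list and 5, 4 and 3 of the plasma cell list. limma called 0 of 54 genes of these 4 lists against WT in DC, MC and DMC, against 0.0211%, 0.781% and 0.788% of all genes tested. At an unadjusted p under 0.05 there were 1, 2 and 3 genes, against 11.7%, 12.7% and 12.5% of all genes tested.

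Markers of lymphoid follicles and lymph nodes are given beside the lymphocyte genes because whole pancreas can carry such tissue. Their list holds genes that lymphocytes themselves express, such as Ltb and Tnfrsf13c, so its mean is not independent of the B and T cell levels. That mean was 3.65, 7.07, 8.15 and 6.13 in WT, 5.24, 4.78, 6.51 and 4.44 in DC, 4.46, 4.75, 6.64 and 4.59 in MC, with 5.70, 7.17, 4.74 and 4.20 in DMC. Glycam1, a ligand of L-selectin made by the high endothelial venules of lymph nodes, had normalized counts of 0, 132, 2547 and 548 in WT, 4.29, 5.81, 215 and 0 in DC, 1.23, 0, 593 and 0 in MC, with 10.02, 796, 3.92 and 0 in DMC. WT 2, WT 3 and WT 4, DC 3, MC 3 and DMC 2 were high, and the other 10 libraries were low. Cxcl13, the chemokine that draws B cells into follicles, had normalized counts of 24.8, 296, 414 and 279 in WT, 199, 159, 227 and 194 in DC, 30.6, 98.4, 95 and 42.8 in MC, with 731, 406, 114 and 23.8 in DMC. DMC replicate 1 was the highest of 16 for Cxcl13 although it had few Glycam1 counts. Cr2, the complement receptor of B cells and follicular dendritic cells, named after its values were seen, had normalized counts of 12.4, 453, 1234 and 132 in WT, 17.8, 9.96, 309 and 18.7 in DC, 34.3, 12.7, 98.04 and 7.25 in MC, with 96.5, 362, 20.9 and 3.65 in DMC. Lists for other cells moved as well within WT: the macrophage level was 7.79, 9.72, 9.71 and 8.90 in WT, 10.07, 9.05, 9.47 and 8.74 in DC, 9.36, 8.89, 9.36 and 9.50 in MC, with 9.92, 9.94, 9.22 and 9.18 in DMC, and the acinar level was 17.49, 16.68, 16.72 and 17.42 in WT, 15.77, 16.92, 16.49 and 17.02 in DC, 16.96, 17.02, 16.81 and 16.15 in MC, with 16.51, 16.15, 17 and 16.41 in DMC. Within WT the acinar level was highest in replicates 1 and 4, the WT libraries with the lowest lymphocyte levels. MC replicate 4 had the lowest acinar level of its group. It was lowest of MC for the B cell level and behind only replicate 3 for the plasma, T and NK and cytotoxic levels. DC replicate 1 was lowest of 16 for the acinar level. It was highest of DC for the plasma and NK and cytotoxic levels, and behind only replicate 3 for the B and T cell levels. The part of lymph node tissue, macrophages or acinar content in the lymphocyte values was not tested.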

How the data were processed

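The submitters' processing notes name STAR 2.6.0b, the build GRCm38 and DESeq2. Which counter, strand setting, annotation release or gene filter the authors applied is not stated in them. The deposited signal is normalized counts, in which each library's gene counts were scaled by 1 size factor. After division by the value of 1 read, 100% of values were whole within 0.001 reads, and these recovered reads were used for count tests. No 2 libraries of a group agreed within sampling noise (chi-square per degree of freedom 8.09 to 128.8).

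A gene was tested if 4 or more libraries had a normalized count of 10 or more. Log2(normalized count + 1) was fitted with limma 3.58.1 (trend) in R 4.3.3, with 16 libraries in a single fit, 6 contrasts between groups and the interaction, and Benjamini-Hochberg adjustment over 14220 genes at a threshold of 0.05. edgeR 4.0.16 and DESeq2 1.42.0 on recovered reads, other pseudocounts, filters, scalings and weights, a block on replicate number and leaving out libraries were alternatives. A list's level is the mean log2 value of its genes in the table. Correlations used 100000 permutations. The limma test was checked on counts simulated for MC against WT, with the spread set by the trend over all genes. Most members spread more than most genes of like level, so the check does not show which changes could be found in them.

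The members and all gene lists were chosen with earlier results of these data known. Named by rule were 19 members, the member with the smallest p in each comparison, the members with the highest and lowest spread, up to 3 abundant genes of other lists and the 10 genes most like Cd79a, Jchain, Cd3e and Nkg7, not all of which are reported here. Other members were named to account for each gene. Coordinates are from GENCODE M21 and promoters from RefSeq. Each library came from 1 animal per the labels.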

Additional observations from a re-analysis of the deposited data

Results flagged for a closer look

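Of 156 sets of 4 libraries examined (each of 35 genes in each group, and the level of each class), 10 held a library whose gap to its nearest neighbour, divided by the range of the 4, exceeded Dixon's 95% critical value for 4 libraries. Chance gives about 1 such set in 20, and 10 of 156 is near that share. The sets are not independent, because many of these genes vary together and each class level averages its genes. The libraries are therefore listed without calling any of them an outlier. DMC replicate 2 was the highest of its group for the NK and cytotoxic level (ratio 0.8935), for Cd3e (0.9274) and for Tcf7 (0.872). MC replicate 3 was the highest of its group for Cd22 (0.9032), Cd79b (0.8682), Tcf7 (0.8604) and Gzma (0.8506), and DC replicate 3 was the highest of its group for Cd79b (0.8802). DC replicate 4 was the lowest DC library for Mzb1 (0.9513), at 27.5 normalized counts against 57.5 to 59.7 in the other DC libraries. DMC replicate 4 was the lowest DMC library for Tnfrsf17 (0.8296), where all 4 DMC libraries held 5 to 11 reads. WT replicates 2 and 3 are not among these, because a pair of high libraries leaves no single gap.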

How the results depend on the processing

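No paired result is given as the main one, because same-numbered libraries did not deviate together: over 24 pairs of groups and numbers the correlation of deviations was -0.37 to 0.38, with 11 over 0.1. A block on the replicate number called 0 members in all 7 comparisons, and over all genes it called 46 in MC against WT where the fit without it called 111. Members called stayed at 0 in all 7 comparisons with the other pseudocounts, filters and scalings, with a robust fit and with edgeR. With only the groups compared, a fit that gives no interaction, they stayed at 0 in every comparison between groups. Without WT replicates 2 and 3 they stayed at 0 in the interaction and in DC, MC and DMC against WT. The comparisons between floxed groups are not given here for that setting. Leaving out each of 16 libraries in turn gave 0 to 0 members called in each comparison. Members called came to 1 in MC against DC with library quality weights (Jchain), where the share over all genes is not given here. They came to 1 in MC against WT with DESeq2 (Mzb1), which called 2.75% of genes tested. The cause was not tested. Only Cd79a, Jchain, Cd3e and Nkg7 were followed singly across these settings. Among them Nkg7 was the gene whose sign against WT depended most on the processing, from main values of 0.27, 0.22 and 0.29 in DC, MC and DMC. These became -0.14, -0.21 and -0.12 with a pseudocount of 5, -0.043, -0.19 and -0.29 with quantile scaling, -0.73, -0.67 and -0.70 with library quality weights, -0.91, -1.12 and -0.77 with edgeR and -0.86, -1.07 and -0.74 with DESeq2. Leaving out 1 library moved Nkg7 from -1 up to 1.03 in DC, from -1.05 up to 0.98 in MC and from -0.97 up to 1.06 in DMC, and Jchain over -0.21 to 0.52 in DC and -0.23 to 0.77 in DMC. Without WT replicates 2 and 3, chosen after seeing the data, Cd79a became 0.59 in DC and 0.73 in DMC, and Cd3e 0.56, 0.96 and 0.68 in DC, MC and DMC. None of these values was called. Nkg7, Gzmb and Tnfrsf17 rest on few reads.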

Other observations

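Within the macrophage list, Marco, the scavenger receptor of splenic marginal zone and lymph node macrophages, had the pattern of the lymphocyte genes, and it was named after its values were seen. Its normalized counts were 1.77, 546, 732 and 47.2 in WT, 73.5, 17.4, 202 and 33.02 in DC, 19.6, 38.1, 186 and 17.4 in MC, with 179, 419, 80.99 and 21.9 in DMC. WT replicates 2 and 3 and DMC replicate 2 were highest and WT replicate 1 was lowest. Its SD within genotypes was 2.33, against a median of 0.50 over the 10 macrophage genes. Erythroid genes did not share that order, with Hbb-bs at 3697, 1314, 2509 and 2278 in WT, 2595, 592, 3051 and 1874 in DC, 1773, 1205, 3052 and 1800 in MC, with 2696, 1317, 3944 and 1530 in DMC normalized counts. The spleen and erythroid list had a median SD within genotypes of 0.88 over 7 genes tested.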
